A study of Mus musculus with 10 samples.

Results

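The genes described here encode the lysosome of microglia and macrophages: 37 genes for lysosomal membrane proteins, for the hydrolases and cofactors of the lysosomal lumen, and for the subunits of the vacuolar proton pump. They were taken as a list by symbol, and all 37 had at least 1 UMI (unique molecular identifier, 1 per captured RNA molecule) among 16620 genes with a UMI in the series. The list held 8 membrane proteins, 13 hydrolases, cofactors and other luminal proteins, 6 subunits of the membrane sector of the pump (V0), 8 subunits of its catalytic sector (V1) and 2 accessory subunits.

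Lysosomes receive what a phagocyte has taken up and break down its proteins, lipids and sugars with acid hydrolases. The vacuolar ATPase pumps protons into the lumen: the V1 sector hydrolyses ATP in the cytosol, and the V0 sector carries the protons across the membrane. In microglia, the resident macrophages of retina and brain, this system serves the clearance of myelin and dying neurons, and many of its genes share promoter elements that bind TFEB-family transcription factors.

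Single cells were captured with droplet chemistry that counts the 3′ ends of transcripts, from wildtype mice of both sexes and of the 129S1/SvlmJ strain at 10 weeks of age as the design text gives it. The strain label also carries P56, which is not explained there. The injury was optic nerve crush, which injures the axons of retinal ganglion cells, at 8 weeks, and the injured tissue was taken 2 weeks later. The 4 groups were uninjured retina (libraries 5 and 6), injured retina (the pools 1+2 and 3+4, each of 2 samples), uninjured optic nerve (libraries 2 and 4) and injured optic nerve (libraries 1 and 3). No label says how many animals a library holds, so p-values measure the spread between libraries, which may be technical.

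The 8 libraries held 12 to 682 cells and 56838 to 5234954 UMIs, and injured nerve library 3 was the deepest. Of 14 microglia and macrophage markers, 13 or 14 had UMIs in every library, with a summed level of 22456 to 46800 CPM (a gene's UMIs scaled to a common library total, the level used throughout). Cells of other kinds were present. Cells with T and NK cell markers made up 20.2% and 42.1% of the injured retina pools and 0 of the cells of uninjured retina, and cells with oligodendrocyte markers made up 21.4% and 14.3% of the uninjured nerve libraries 2 and 4 against 9.59% and 6.74% of the injured libraries 1 and 3. Cells like border macrophages (Mrc1, F13a1) made up 48.5% of uninjured nerve library 2 and at most 6.74% of the other nerve libraries. By UMIs, border macrophage-like cells held 224352 and oligodendrocyte-like cells 58083 of the 351333 UMIs of uninjured nerve library 2. Cluster 3, led by microglial genes such as P2ry12 and Tmem119, held 48178 of them, and 26281 of the 84121 UMIs of uninjured nerve library 4. Endothelial markers summed to 4696 CPM in library 4, where 2 cells were endothelial-like, and to 356 CPM in library 2. In a sum over cells, fewer cells of a type and less RNA per cell cannot be told apart. Uninjured retina had no UMI in the later entries of the gene table, which held 0.374% to 0.548% of the UMIs elsewhere, so the make-up of the table differed with injury in the retina, and all 37 genes lay in the earlier entries.

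RefSeq promoters (build GRCm38.p6) were at hand for 30 of the 37 genes. Asah1, Atp6v0d2, Atp6v1b2, Atp6v1c1, Atp6v1g1, Atp6v1h and Npc1 had no promoter sequence here. Within 250 bases before the start, the palindrome CACGTG, the core of the element that TFEB-family factors bind, was found in 6 of the 30 genes (20%): Atp6v0b, Atp6v1a, Glb1, Lamp1, Lgmn and Mcoln1. Of 27025 genes searched in the same way, 6.86% held it. The longer GTCACGTG, searched on both strands and overlapping the palindrome, was found in 5 of the 30 (16.7%) against 2.11% of all genes. The last 120 bases before the RefSeq start are shown for 4 genes whose levels differ between the groups below, each read along the strand of its gene, with CACGTG in capitals.
Lamp1: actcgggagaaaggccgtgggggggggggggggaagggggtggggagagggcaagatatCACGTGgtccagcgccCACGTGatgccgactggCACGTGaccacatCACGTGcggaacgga
Lgmn: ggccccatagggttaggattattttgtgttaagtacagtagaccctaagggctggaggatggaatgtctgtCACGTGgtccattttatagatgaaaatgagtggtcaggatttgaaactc
Atp6v0b: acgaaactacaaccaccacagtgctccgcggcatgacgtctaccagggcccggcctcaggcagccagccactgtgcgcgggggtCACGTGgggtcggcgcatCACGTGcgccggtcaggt
Hexa: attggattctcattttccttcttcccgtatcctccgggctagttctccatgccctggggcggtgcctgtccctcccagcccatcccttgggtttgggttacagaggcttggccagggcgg
These lie at chr8:13159041-13159160 (plus strand), chr12:102439093-102439212 (minus strand), chr4:117887330-117887449 (minus strand) and chr9:59539420-59539539 (plus strand). The window of Lamp1 holds 4 copies, the first base of the nearest 15 bases before the start and that of the farthest 61. Atp6v0b has 2 copies, at 36 and 18 bases, and Lgmn 1, at 49 bases. RefSeq gives Lgmn another start, whose window of 250 bases (chr12:102439729-102439978) has no copy, and the window of Lgmn shown here lies inside the gene as GENCODE M21 places it. The letters are not in the window of Hexa. A match in these letters is a description of the sequence and says nothing of binding.

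The 37 genes together took 1.5% and 1.45% of all UMIs in uninjured retina and 1.20% and 1.10% in the injured pools. In optic nerve they took 1.11% and 1.03% without injury, and 1.46% (library 1) and 2.24% (library 3) after crush. Both injured pools lay below uninjured retina, and both injured nerve libraries above uninjured nerve. The 14 microglia and macrophage markers moved in the same directions: their sum was 43155 and 46800 CPM in uninjured retina, 30287 and 28949 CPM in the injured pools, 23064 and 22456 CPM in uninjured nerve, and 32465 and 43449 CPM in injured nerve libraries 1 and 3. Their part in the differences of the lysosome genes was not tested. In UMIs, which are not scaled to transcript length, luminal proteins were the largest part in every library, from 0.554% to 1.17% of UMIs, and membrane proteins the next, from 0.286% to 0.782%. All 16 pump genes together were a smaller part: V0 subunits took 0.0844% to 0.119% and V1 subunits 0.0761% to 0.141%.

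**Figure D1:**
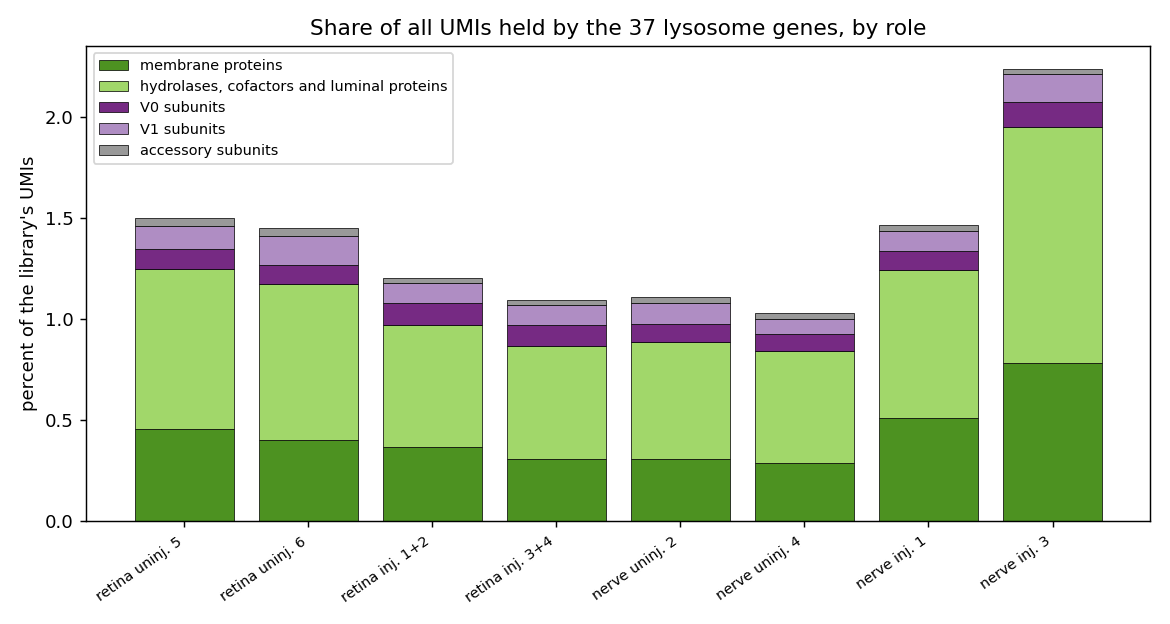
Percent of each library's UMIs held by the 37 lysosome genes, stacked by role (1 bar per library, no replicate error within a bar). The bars run from 1.03% in uninjured nerve library 4 to 2.24% in injured nerve library 3, and most of the difference lies in the luminal and membrane proteins.

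In GENCODE M21 (GRCm38) the genes that the comparisons turn on are protein-coding genes at chr9:59539540-59565109 (Hexa), chr11:69664213-69666153 (Cd68), chr12:102394084-102439813 (Lgmn), chr4:117884326-117887333 (Atp6v0b), chr17:24163866-24169702 (Atp6v0c), chr8:13159161-13175338 (Lamp1) and chr10:128900989-128912822 (Cd63). Hexa overlaps Tmem202, Lamp1 overlaps Grtp1 and Atp6v0b overlaps Gm12841, each on the opposite strand. Whether counting used the strand is not given in the sources used here, so reads in these overlaps may be uncertain.

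The crush comparison in retina asks how the lysosome genes of microglia and macrophages differ in the eye whose ganglion cell axons were crushed. Of 33 genes tested, 4 fell (Hexa, Cd68, Atp6v0b and Lgmn) and 1 rose (Atp6v0c). Over all 3312 genes tested 19.7% changed, 9.72% falling and 9.99% rising, so the share of lysosome genes that changed is near the background. The median difference of the 33 was -0.41 on the log2 scale, against 0.07 for all genes tested. Differences lay above 0 for 12 of the 33, against 52.5% of all genes. Lipa, Atp6v0a1, Mcoln1 and Atp6v0d2 had too few UMIs for the test.

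Hexa, the alpha subunit of beta-hexosaminidase, which trims gangliosides, had 616 and 633 CPM without injury and 125 and 106 CPM in the 2 injured pools. The injured pools lie far below both uninjured libraries. Its log2 difference was -2.39 ± 0.27 (SE; edgeR adjusted p = 0.000178). Hexa fell in every setting in which it could be tested, and the difference ranged from -2.45 to -2.10.

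Cd68, a heavily glycosylated lysosomal protein of phagocytes, was measured at 665 and 669 CPM without injury and at 292 and 206 CPM after crush, without overlap (log2 difference -1.38 ± 0.28, SE; edgeR adjusted p = 0.00641). Legumain (Lgmn), an asparaginyl endopeptidase that processes cathepsins, had 2682 and 2850 CPM in uninjured retina and 1265 and 1422 CPM in the injured pools. Both pools lie well below the uninjured libraries. The log2 difference of Lgmn was -1.02 ± 0.26 (SE; edgeR adjusted p = 0.0212).

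Atp6v0b, a V0 subunit of the proton-carrying ring, had 525 and 757 CPM without injury and 284 and 277 CPM in the pools (log2 difference -1.13 ± 0.26, SE; edgeR adjusted p = 0.0123). The injured pools lie close together and below both uninjured libraries, which differ from each other. The calls of Lgmn and Atp6v0b were each lost in 4 alternatives and kept in 8, and that of Cd68 was lost in 3 and kept in 9. All 3 calls were lost with edgeR on all 8 libraries (edgeR adjusted p = 0.0983 for Lgmn, 0.0975 for Atp6v0b and 0.125 for Cd68). Those of Lgmn and Atp6v0b were also lost without either injured pool, and that of Cd68 without the pool 3+4. The number of lysosome genes called was higher without uninjured library 6 and lower without either injured pool, so it rests on which libraries enter. The share of all genes called in those fits is not given here, so this is no result about the lysosome genes.

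Atp6v0c, the main ring subunit of V0, moved the other way. It had 3 and 0 UMIs in uninjured retina and 793 and 164 UMIs in the injured pools, which is 558 and 528 CPM. Over the group sums the ratio was 36.8 (95% Clopper-Pearson interval 12.5 to 179, counting error only; edgeR adjusted p = 9.7e-05). Both nerve groups were low too, with 1 and 0 UMIs in uninjured nerve and 3 and 59 UMIs in injured nerve, so the injured retina pools stand apart from all 6 other libraries. Rnasek and Nme2, which lead the same cluster of injured retina cells as Atp6v0c and were named after their values were seen, had a like pattern: 0 UMIs in both uninjured retina libraries, 322 and 61 (Rnasek) and 648 and 101 (Nme2) in the injured pools, and at most 54 UMIs in a nerve library. Of other genes that lead this cluster, Gng10 had 3 and 3 UMIs in uninjured retina, 411 and 66 in the pools and at most 26 in a nerve library. Gm42418 had 89 and 32 UMIs in uninjured retina (623 and 563 CPM), 7910 and 1086 in the pools (5567 and 3493 CPM) and 0 in all 4 nerve libraries, so it was not near 0 without injury. The part of the annotation or counting in this pattern was not tested. No other gene overlaps Atp6v0c in GENCODE M21.

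The T and NK-like cells of the injured pools carried little of this system. The 37 genes summed to 2717 and 2694 CPM in them, against 12911 and 12428 CPM in the main injured retina cluster (85 and 33 cells). Cd68, Cd63 and Lgmn had 0 CPM in the T and NK-like cells of both pools. Within the main injured cluster, Hexa stood at 134 and 118 CPM and Cd68 at 321 and 243 CPM. The cluster that held most uninjured retina cells (27 and 12 cells) had 611 and 633 CPM of Hexa and 637 and 669 CPM of Cd68. Clusters were formed without these 37 genes. The main injured cluster held 1 and 0 cells of the uninjured retina libraries, and the other cluster held 0 cells of the injured pools. Setting the clusters against each other thus repeats the comparison of injured with uninjured retina. With T and NK-like, oligodendrocyte-like and endothelial-like cells left out, the test in retina called 5 lysosome genes. The share of all genes called in that fit is not given here. Hexa was at -2.23, Cd68 at -1.15, Atp6v0b at -0.96 and Lgmn at -0.79.

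Among the other membrane proteins, Lamp1, a major glycoprotein of the lysosomal membrane, had 1015 and 932 CPM without injury and 628 and 614 CPM in the pools (log2 difference -0.64 ± 0.26, SE; edgeR adjusted p = 0.103). The groups do not overlap, but the difference did not pass the test. Lamp2 had -0.73 and Scarb2, the receptor that carries glucocerebrosidase to the lysosome, -1.10 (edgeR adjusted p = 0.0716 and 0.0705). Cd63, a tetraspanin of late endosomes and lysosomes, stood at 952 and 475 CPM without injury and at 1115 and 891 CPM after it, with overlap.

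Several luminal genes differed from Hexa in retina. Npc2, which hands cholesterol to Npc1, stood at 980 and 757 CPM and then at 1043 and 1026 CPM, and prosaposin (Psap), the precursor of sphingolipid activators, at 1268 and 1232 CPM and then at 1564 and 1296 CPM. In both the injured pools lie slightly above uninjured retina, and neither passed the test (log2 difference 0.24 and 0.22; edgeR adjusted p = 0.573 and 0.603). Of the 33 genes of the 8-library table, 4 had both injured pools above both uninjured libraries and 17 had both below, against 30.6% and 30.9% of all genes.

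The remaining luminal genes of retina had log2 differences of -1.40 (Glb1, beta-galactosidase), -0.78 (Asah1), -0.41 (Grn), -0.39 (Gusb), -0.32 (Tpp1), 0.17 (Ppt1), 0.23 (Neu1) and 0.45 (Man2b1), and the membrane genes Laptm5 and Npc1 of -0.18 and 0.33. The smallest of their edgeR adjusted p-values was 0.0713, for Asah1.

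None of the 8 V1 subunits passed the test in retina, with 4 differences above 0 and 4 below. Atp6v1f stood at 336 and 422 CPM without injury and 259 and 216 CPM after it, and Atp6v1d at 147 and 70.4 CPM and then 48.6 and 45 CPM. Both had injured pools below the uninjured libraries, and Atp6v1d (log2 difference -1.36 ± 0.45, SE; edgeR adjusted p = 0.0535) lay just outside the threshold. V0 and V1 thus held genes on both sides of 0.

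**Figure D2:**
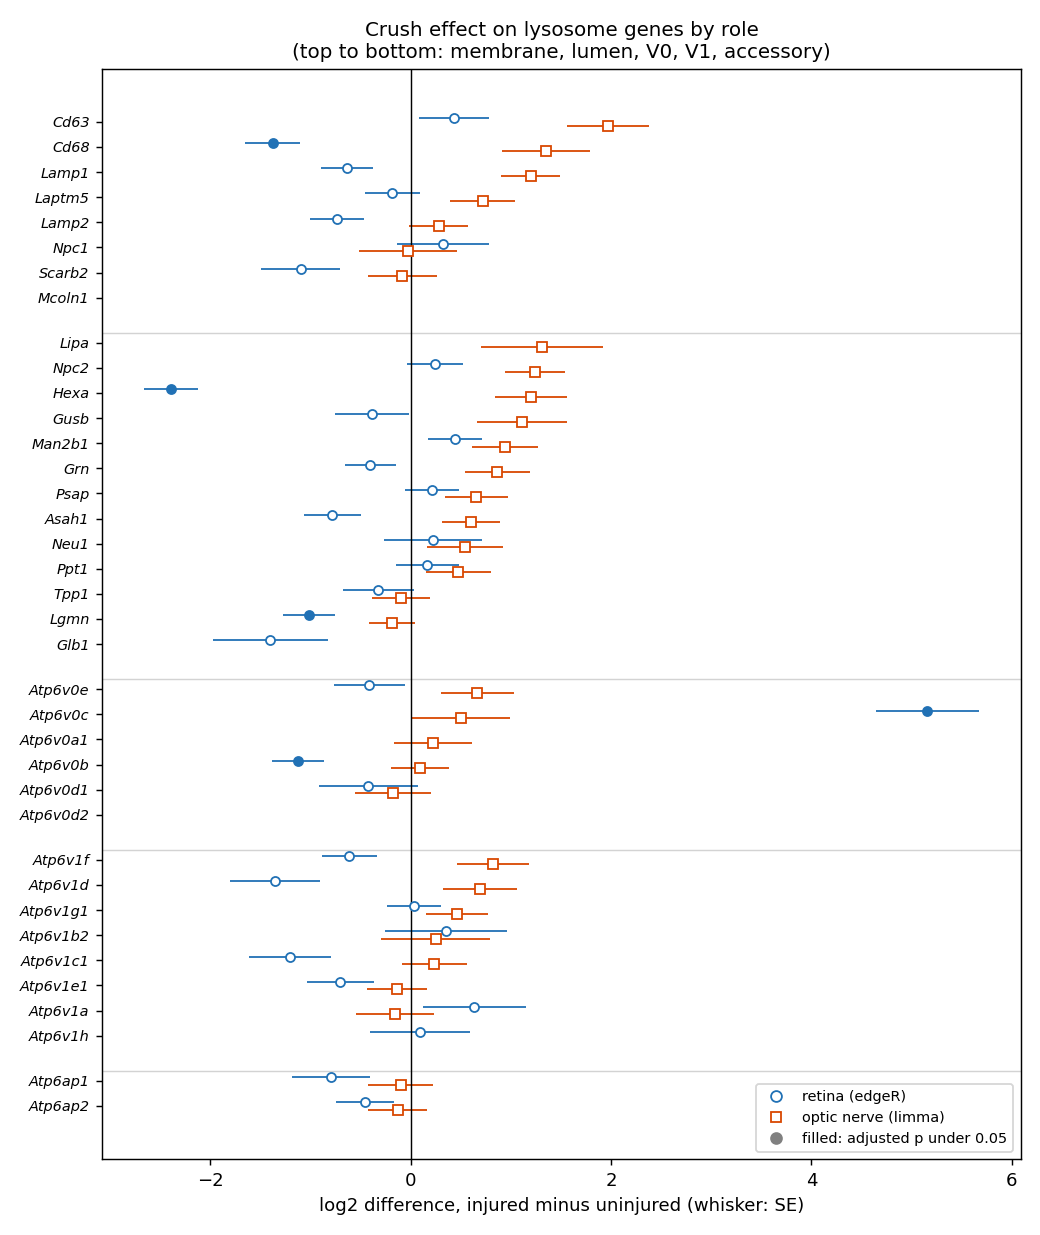
Log2 difference between injured and uninjured libraries (horizontal axis; whisker, SE) for each lysosome gene in retina (circles, edgeR) and optic nerve (squares, limma on log2(CPM + 20)), by role; filled marks passed an adjusted p of 0.05. In retina Hexa lies lowest at -2.39 and Atp6v0c highest at 5.16 (a fitted value against 3 and 0 UMIs), and in nerve the largest value is 1.97 for Cd63, with no filled mark.

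The same comparison in optic nerve asks about the tissue that holds the crushed axons and their myelin. None of the 33 genes tested by limma passed (9 had an unadjusted p under 0.05, against 13.2% of all genes), where 0.634% of 2683 genes did (0.373% higher and 0.261% lower). With edgeR on recovered UMIs of all 8 libraries, 1 of 35 passed, Cd63, against 0.962% of 5511 genes, and 15 had an unadjusted p under 0.05, against 12.6%. Differences lay above 0 for 24 of the 33 genes against 43.7% of all genes, and their median was 0.50 against -0.08 for all genes on the log2(CPM + 20) scale. Scaling by TMM moved the all-gene median to 0.31 and that of the lysosome genes to 0.88, so a gene's difference is to be read against that shift. In 19 of the 33 both injured libraries lay above both uninjured ones, against 18.2% of all genes, and in 1 (Lgmn) both lay below, against 24.3%. Fold changes on this scale understate the change of genes at low levels. Mcoln1, Glb1, Atp6v1h and Atp6v0d2 were below the level filter.

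Cd63 stood at 555 and 380 CPM in uninjured nerve and at 1346 (library 1) and 2557 CPM (library 3) after crush. Both injured libraries are above both uninjured ones and lie far apart from each other. The log2 difference was 1.97 ± 0.41 (SE; limma adjusted p = 0.0714). It passed in edgeR over all libraries (2.26, edgeR adjusted p = 0.0474) and in limma without injured library 1 (2.42, limma adjusted p = 0.0211), and did not without injured library 3 (1.51, limma adjusted p = 0.365).

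Lamp1 stood at 902 and 606 CPM in uninjured nerve and at 1440 and 2064 CPM in injured nerve, and Cd68 at 461 and 166 CPM and then at 599 and 921 CPM. In both, the injured libraries lie above the uninjured ones. The differences were 1.20 ± 0.30 for Lamp1 and 1.35 ± 0.44 for Cd68 (SE; limma adjusted p = 0.109 and 0.213). Without uninjured library 2, in which border macrophage-like cells were frequent, Cd68 passed (2.03, limma adjusted p = 0.0472), and without uninjured library 4 its difference was 0.67 (limma adjusted p = 0.728).

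Hexa stood at 515 and 345 CPM in uninjured nerve and at 709 and 1391 CPM in injured nerve (log2 difference 1.20 ± 0.36, SE; limma adjusted p = 0.188). Npc2 stood at 905 and 654 CPM and then at 1515 and 2256 CPM (1.24 ± 0.30, SE; limma adjusted p = 0.105). Neither pair of groups overlaps, and library 3 is the highest for both genes. Without injured library 1 both passed (1.67 and 1.53, limma adjusted p = 0.0445 for each), and without injured library 3 they were at 0.72 and 0.96. Other luminal genes in the same order of libraries were Grn (progranulin), at 635 and 440 CPM and then 756 and 1266 CPM, and Gusb (beta-glucuronidase), at 185 and 143 CPM and then 229 and 604 CPM. Lgmn did not share it. It stood at 1392 and 1510 CPM without injury and at 1249 and 1296 CPM after it (-0.19, limma adjusted p = 0.798). Over the alternatives its difference ranged from -0.99 to 0.27, the latter with TMM scaling, and none passed. In uninjured libraries 2 and 4, Lgmn stood at 3985 and 3082 CPM in cluster 3 and at 1135 and 1971 CPM in cluster 5. Border macrophage-like cells of library 2 had 1141 CPM. Clusters 4 and 5, described below, had 1564 and 1387 CPM in injured library 1, and 1374 and 1131 CPM in injured library 3. The part of cell make-up was not tested.

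The remaining membrane and luminal genes of nerve lay between. Man2b1, a lysosomal alpha-mannosidase, had 324 and 321 CPM without injury and 468 and 867 CPM after it (0.94, limma adjusted p = 0.253). Lipa, the acid lipase that frees cholesterol from its esters, had 68.3 and 23.8 CPM and then 69 and 247 CPM (1.31, limma adjusted p = 0.407). In both genes library 3 is far above the others, while in Lipa library 1 equals uninjured library 2. Asah1 (acid ceramidase), at 242 and 202 CPM and then 311 and 385 CPM, and Laptm5, at 589 and 1046 CPM and then 1123 and 1521 CPM, did not overlap either (0.60 and 0.72). Psap, at 1164 and 1640 CPM and then 1657 and 2884 CPM, hardly separates. Lamp2, Neu1 and Ppt1 differed by 0.28, 0.54 and 0.48, and Npc1, Scarb2 and Tpp1 by -0.03, -0.08 and -0.10, each with a limma adjusted p above 0.05.

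**Figure D3:**
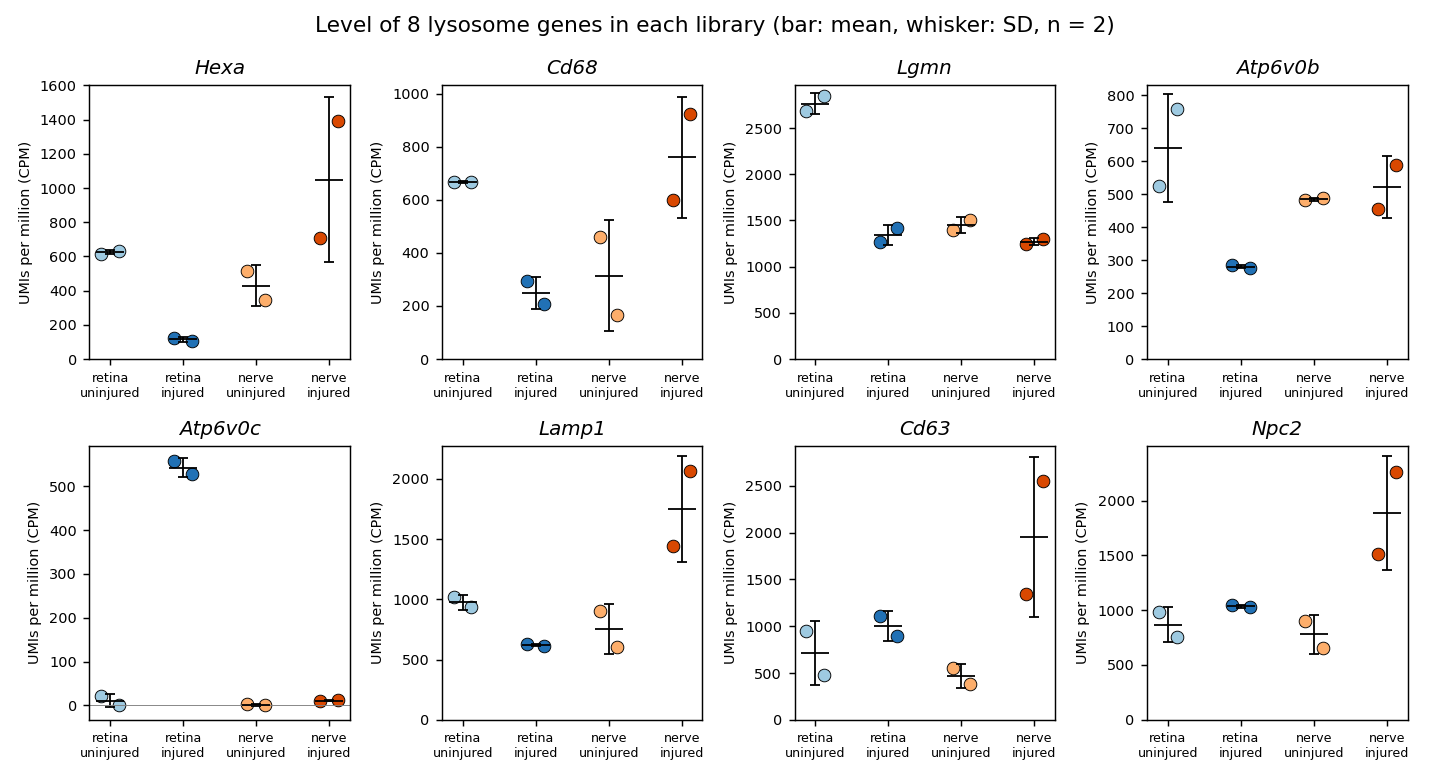
Level of 8 lysosome genes in each of the 8 libraries (points; vertical axis, CPM), with the mean (bar) and SD (whisker) of the 2 libraries of a group. Hexa falls to 125 and 106 CPM in injured retina and reaches 709 and 1391 CPM in injured nerve, and Atp6v0c reaches 558 and 528 CPM in injured retina alone.

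None of the pump genes tested passed in nerve. Atp6v1f, a V1 subunit, stood at 265 and 131 CPM in uninjured nerve and at 292 and 409 CPM after crush (0.82 ± 0.36, SE; limma adjusted p = 0.376), Atp6v1d at 48.4 and 35.7 CPM and then 75.3 and 84.2 CPM, and Atp6v0e, a small V0 subunit, at 225 and 166 CPM and then 289 and 352 CPM. All 3 had injured libraries above the uninjured ones. Atp6v0b, at 481 and 487 CPM and then 455 and 588 CPM, overlapped (0.09 ± 0.29, SE). Of the rest, Atp6v1g1 differed by 0.46, Atp6v1b2 by 0.25, Atp6v1c1 by 0.24 and Atp6v0a1 by 0.22, and Atp6v0d1, Atp6v1a and Atp6v1e1 by -0.18, -0.15 and -0.13.

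The accessory subunits, which assist assembly of the pump, did not separate the groups. Atp6ap1 stood at 159 and 119 CPM and then 104 and 155 CPM, and Atp6ap2 at 162 and 166 CPM and then 176 and 126 CPM. Both overlapped (differences of -0.10 and -0.13), and with TMM scaling both differences were above 0 (0.30 and 0.28).

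Within injured nerve, the large unnamed clusters carried more of the lysosome genes than the other cells. In library 3 the 37 genes summed to 23768 CPM in cluster 4 (262 cells, led by Gpnmb) and 22277 CPM in cluster 5 (323 cells of low depth), against 13943 CPM in border macrophage-like and 8025 CPM in oligodendrocyte-like cells. In library 1 the same clusters had 15644 and 16987 CPM, against 12442 and 6212 CPM in border macrophage-like and oligodendrocyte-like cells. Library 3 is thus higher than library 1 in both clusters as well as in the whole. These clusters hold few uninjured nerve cells (1 and 1 in cluster 4, 10 and 8 in cluster 5), so the crush comparison within them was not made. Cluster 3 of uninjured nerve (18 cells in library 2 and 12 in library 4) had 15235 and 14992 CPM, near the level of clusters 4 and 5 in injured library 1 and below that in library 3. An alternative added after the data were seen left out border macrophage-like, T and NK-like, oligodendrocyte-like and endothelial-like cells. In it Cd63 (2.91), Lamp1 (1.53) and Cd68 (1.75) passed in optic nerve (limma adjusted p = 0.0174, 0.0205 and 0.019). The share of all genes passing in that alternative is not given here, so these 3 are not set against a background. The part of the border macrophage-like cells of library 2 in the main values was not tested further.

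**Figure D4:**
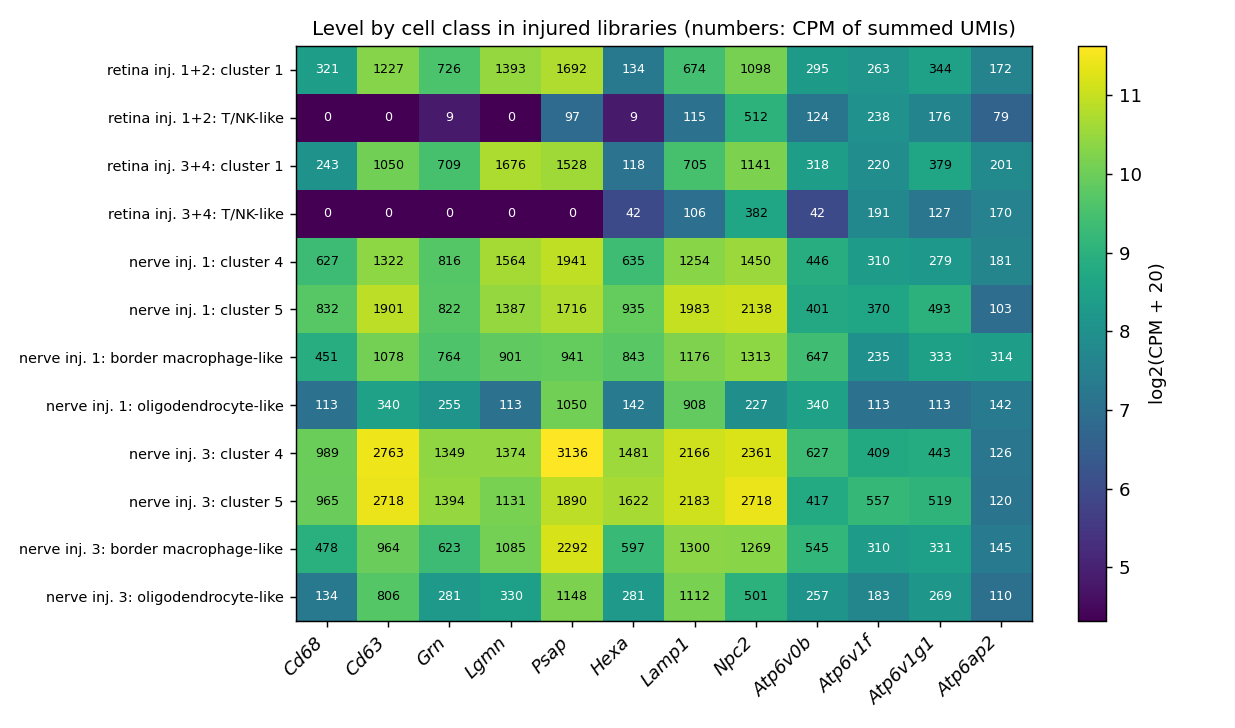
Level of 12 lysosome genes (columns) in cell classes of the 4 injured libraries (rows; colour, log2(CPM + 20); numbers, CPM of summed UMIs). T and NK-like cells of retina have 0 CPM of Cd68, Cd63 and Lgmn, and clusters 4 and 5 of injured nerve library 3 have 2763 and 2718 CPM of Cd63.

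Atp6v0d2, a V0 subunit known from osteoclasts and some macrophages, had most of its UMIs in 1 library: there were 249 UMIs in injured nerve library 3, where 56 of 682 cells held one, then 3 UMIs in the injured retina pool 1+2, 1 UMI in uninjured nerve library 2 and 0 UMIs in the other 5. Within library 3, 45 of the 262 cells of cluster 4 held 235 of the UMIs, up to 27 in a cell. In cluster 5, 10 of 323 cells held one, at a median of 1015 UMIs per cell against 16435 in cluster 4, and 1 of 46 oligodendrocyte-like and 0 of 46 border macrophage-like cells did. Injured nerve library 1, with 318715 UMIs in all, had none, and so the gene gives no comparison between groups. Its relative Atp6v0d1 had UMIs in every library, from 35.2 to 119 CPM.

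The crush effects in the 2 tissues were compared directly as the difference of differences (nerve minus retina, limma over all 8 libraries). Of 33 genes, 4 passed, 3 above 0 and 1 below, against 3.91% of all genes (1.6% and 2.31%): Hexa (3.45 ± 0.51, limma adjusted p = 0.00772), Cd68 (2.72 ± 0.62, adjusted p = 0.0418) and Lamp1 (1.83 ± 0.42, adjusted p = 0.0441) were higher in nerve, and Atp6v0c (-3.79 ± 0.69, adjusted p = 0.0146) was lower. In all 3 of the first, both injured nerve libraries lay above uninjured nerve and both injured retina pools below uninjured retina. Differences lay above 0 for 29 of the 33, against 46.7% of all genes, and the median was 0.84 against -0.08. By role, 12 of 12 luminal genes, 6 of 7 membrane proteins, 3 of 5 V0 subunits, 6 of 7 V1 subunits and 2 of 2 accessory subunits lay above 0. The call of Hexa was kept in all but 2 of 17 alternatives, the exceptions being cells thinned to 1000 UMIs (2.29, limma adjusted p = 0.276) and the fit without the pool 3+4 (3.36, limma adjusted p = 0.053). Cd68 lost its call in 10 of 17 alternatives and Lamp1 in 11, with no change of direction. Atp6v0c lost its call in 5 of 17, among them edgeR on all 8 libraries (-2.83, edgeR adjusted p = 0.49) and the fits without either injured retina pool (limma adjusted p = 0.243 and 0.267). The number called was lower without either injured retina pool, either uninjured retina library, uninjured nerve library 4 or injured nerve library 3. No share of all genes called is given for those fits.

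After thinning every cell to 1000 UMIs in 1 random draw, which leaves out 297 shallower cells, Hexa had a UMI in 40% and 8.33% of cells in uninjured retina (libraries 5 and 6), against 77.4% and all 12 cells unthinned. Library 6 has 12 cells, so its share rests on 1 cell. In the injured pools the share was 8.26% and 8.77%, in uninjured nerve 36.9% and 36.8%, and in injured nerve 44.3% and 67.6%. Both injured nerve libraries are higher than all the others, library 1 only a little above uninjured retina library 5.

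Between tissues without injury, 1 of 33 genes passed, against 9.84% of all genes (5.33% higher and 4.51% lower): Lgmn was lower in nerve (-0.92 ± 0.23, SE; limma adjusted p = 0.0349). Its levels, 1392 and 1510 CPM in nerve and 2682 and 2850 CPM in retina, do not overlap. Differences lay above 0 for 7 of the 33 genes, against 53.0% of all genes. In 2 genes (Atp6v0a1 and Atp6v0d1) both nerve libraries lay above both retina libraries and in 15 both lay below, against 27.7% and 25.1% of all genes. The call of Lgmn was lost in 11 of 16 alternatives, among them the fit without T and NK-like, oligodendrocyte-like and endothelial-like cells (-0.52, limma adjusted p = 0.298). In the cells of cluster 3, which is led by microglial genes such as P2ry12 and Tmem119, Lgmn stood at 3985 and 3082 CPM in nerve (18 and 12 cells) and at 3106 and 2850 CPM in retina, without the order of the whole libraries.

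Among injured libraries, 3 of 33 passed, 2 higher and 1 lower, against 4.32% of all genes (1.68% and 2.65%). Hexa (2.91 ± 0.36, limma adjusted p = 0.00212) and Lamp1 (1.44 ± 0.30, limma adjusted p = 0.029) were higher in nerve than in retina, and Atp6v0c (-4.21 ± 0.49, limma adjusted p = 0.0018) was lower. In summed UMIs Atp6v0c was 49.5-fold higher in retina (95% interval 38.3 to 65.1, counting error only). Differences lay above 0 for 29 of the 33, against 48.3% of all genes. Both nerve libraries lay above both retina pools in 22 of the 33 genes, against 28.3% of all genes, and below in 1, against 30.8%. The call of Lamp1 was lost in 9 of 16 alternatives. The number of lysosome genes called was lower without either retina pool, with no share of all genes given for those fits. Tissue, retina pooling and the form in which values were deposited change together here and cannot be told apart.

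Of 66 other lysosome genes (further hydrolases, transporters, the Ragulator complex, sorting receptors and the transcription factors Tfeb, Tfe3 and Mitf), 61 had a UMI. In retina 32 were tested, of which 4 fell and 1 rose, where 9.72% of all genes tested fell and 9.99% rose. Gm2a, an activator protein that presents GM2 ganglioside for degradation, stood at 252 and 176 CPM without injury and at 85.9 and 99.7 CPM after it (log2 difference -1.30 ± 0.34, SE; edgeR adjusted p = 0.0233). The injured pools lie below both uninjured libraries.

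Galc, which degrades galactosylceramide of myelin, rose in retina from 1 and 0 UMIs to 79 and 21 UMIs (edgeR adjusted p = 0.0206). Rnaset2b fell from 224 and 158 CPM to 2.11 and 3.22 CPM (edgeR adjusted p = 6.67e-05), and had at most 9.41 CPM in a nerve library. Its near-identical copy, Rnaset2a, stood at 441 and 246 CPM without injury and at 215 and 180 CPM in the pools. The part of read assignment between the copies, annotation or counting was not tested. In nerve, 0 of 29 other lysosome genes passed limma, against 0.634% of all genes. The smallest adjusted p was that of Ctsa, which protects beta-galactosidase and Neu1, at 532 and 321 CPM without injury and 646 and 1439 CPM after it (1.18 ± 0.40, SE; limma adjusted p = 0.23).

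In the cells the authors marked as positive for Rbpms, a gene of retinal ganglion cells, the lysosome genes took a share of UMIs near that of the other cells in retina: 1.54% against 1.49% in library 5 and 1.29% against 1.18% in the pool 1+2. In nerve the share was lower in positive cells, 0.646% in the 6 positive cells of uninjured library 2, where the whole library stood at 1.11%, and 2.01% against 2.27% in injured library 3 (38 positive cells). These are descriptions of cells within a library, with no test.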

How the data were processed

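Microglia and macrophages of retina and optic nerve, with and without crush, were profiled by droplet sequencing in 10 samples, deposited as 8 libraries (2 per group) in 1 table of 1168 cells. Per the submitters' processing notes, Cell Ranger 1.3, bcl2fastq 2.17.1.14, Seurat 4.0.3 and the build mm10 were used, and cells with 200 to 6500 genes were kept. Which annotation each library was counted with is not given in the sources used here. The authors deposited retina values as raw UMI counts (209 cells) and optic nerve values as natural log (ln) values, ln(1 + 10000 × UMIs / total), per the values themselves (959 cells). Whole UMIs were recovered from the ln values for all 1374534 values above 0 (tolerance 0.01). Entries analysed hold 96.5% to 98.1% of the scaled total of each nerve library.

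UMIs were summed per library. Retina crush was tested with edgeR 4.0.16 (quasi-likelihood, TMM, filterByExpr, the 27998 entries in which every group could hold a UMI) on raw counts. Other comparisons used limma 3.58.1 with trend on log2(CPM + 20) over all 8 libraries, for genes with a mean of at least 50 CPM and a UMI in both tissues. Adjusted p-values are Benjamini-Hochberg over all genes tested, with a threshold of 0.05. Clustering in scanpy 1.11.5 left the 37 lysosome genes out of 2000 variable genes and used 30 components, 15 neighbours and Leiden at resolution 0.5. A marker list named a cluster where 2 of its markers were among the 10 leading genes and 3 among 50; the others stay numbered. No doublet caller was run, and 2 barcodes occur in 2 libraries. Both fits were also run on simulated counts without differences in cell make-up between libraries, so that run does not measure error rates in these data.

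Levels in every library are given for lysosome genes that passed in retina, nerve or their difference, and for the 2 with the smallest p in nerve in each role; the other genes of the list are named to account for it, with levels for some chosen after their values were seen. At most 4 other lysosome genes per comparison are named, and 1 result among them is not reported here. The genes and lists were chosen with earlier results of these data known. Promoters are from RefSeq. Alternatives covered scaling, filters, pseudocounts, tool, cell classes, thinning and leaving out each library.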

Additional observations from a re-analysis of the deposited data

Results flagged for a closer look

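For 4 genes the effect of crush differed between the tissues by a test of that difference (optic nerve minus retina, limma over all 8 libraries, log2(CPM + 20) scale). The difference was 3.45 for Hexa, 2.72 for Cd68 and 1.83 for Lamp1, which were higher in both injured nerve libraries and lower in both injured retina pools than in the uninjured libraries of the same tissue. It was -3.79 for Atp6v0c, which was high in the injured retina pools and near 0 in the other 6 libraries. That of Atp6v0c ranged from -4.31 to -1.35 over 17 alternatives (the latter in ln units) and lost its call in 5 of them, with edgeR on all 8 libraries at -2.83 (edgeR adjusted p = 0.49). Cd68 lost its call in 10 of 17, Lamp1 in 11 and Hexa in 2. Groups of 2 libraries are too small for a check of single outlying libraries.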

How the results depend on the processing

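Counts of lysosome genes passing an adjusted p of 0.05 moved with the processing, and causes were not tested. The share of all genes passing differs between settings too. In optic nerve it was 0.634% of 2683 genes with limma and 0.962% of 5511 genes with edgeR on all 8 libraries. The counts below therefore describe the settings and are no result about the lysosome genes. In retina (5) the count was 3 with no filter on low counts and 2 with edgeR on all 8 libraries. In optic nerve (0) it was 1 with edgeR, 1 with the mean ln value per cell and 3 without border macrophage-like, T and NK-like, oligodendrocyte-like and endothelial-like cells (added after seeing the data). For nerve minus retina (4) it was 1 with edgeR, 2 with no filter, 2 with TMM-scaled CPM, 2 without cells like T or NK cells, oligodendrocytes or endothelium and 1 with cells thinned to 1000 UMIs. For uninjured nerve against retina (1) it was 0 in those same 5 settings and 7 with the mean ln value. For injured nerve against retina (3) it was 6 with edgeR, 1 after thinning and 5 with the mean ln value. Leaving out each library in turn moved the count in every comparison. A lone library of a group is then assumed to vary like the others. The mean ln settings are in ln units.

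Of 412 gene values, 326 kept direction and side of the threshold, 62 lost the call, 9 gained it and 15 reversed, all in nerve and none called. Atp6ap1 (-0.10) was 0.0931 with edgeR, 0.30 with TMM and -0.35 to 0.15 without 1 library. Atp6ap2 (-0.13) was 0.0478 with edgeR, 0.28 with TMM, 0.52 without border macrophage-like and other cells and -0.3412 to 0.0865 without 1 library. Atp6v0b (0.09) was -0.13 without T and NK-like, oligodendrocyte-like and endothelial-like cells, -0.0874 after thinning, -0.0377 without border macrophage-like cells too, -0.29 with the mean ln value and -0.0862 to 0.27 without 1 library. Lgmn (-0.19) was 0.0274 with edgeR and 0.27 with TMM, and it ranged down to -0.99 over the other alternatives.

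No paired analysis was possible because the injured retina columns are pools and the groups of a tissue share no replicate number. Depth limits uninjured retina (12 and 31 cells) and uninjured nerve library 4 (28 cells) most: there 1 UMI is 17.6, 7 and 11.9 CPM.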
